A study of Homo sapiens with 9 samples.

Results

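The 9 genes described here are the 3 Tribbles pseudokinases (TRIB1, TRIB2 and TRIB3), the ubiquitin ligase COP1 with its partner DET1, and 4 transcription factors of the C/EBP family (CEBPA, CEBPB, CEBPD and CEBPG). They were chosen by symbol from what is known of Tribbles proteins, but with earlier results of these data known, as were the gene lists used below. All 9 were found among the 24204 genes measured by RNA-seq. The cells were HepG2, an established human liver cancer line, grown in high-glucose DMEM with 10% serum and infected for 48 h with lentivirus that carried a control short hairpin RNA (shCtrl, labelled Ctrl_shRNA) or a hairpin that targets TRIB3 (shTRIB3-1, labelled TRIB3 sh1, or shTRIB3-2, labelled TRIB3 sh2). Every group, shCtrl included, went through infection and 48 h of puromycin selection, and was harvested as a selected pool at the P2 generation. There were 3 libraries in each group. The study's methods name glutamine-deprived cells and a different library kit from the labels, so the medium at harvest is uncertain.

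Tribbles proteins resemble kinases but signal mainly as scaffolds. The pseudokinase domain holds a substrate while the C-terminal tail binds COP1, a RING-type E3 ligase that works together with DET1, DDB1 and CUL4, and the substrate is ubiquitinated and degraded by the proteasome. The best known substrates of TRIB1 and TRIB2 are the C/EBP factors, basic leucine zipper proteins that drive hepatocyte, adipocyte and myeloid genes, whereas TRIB3 is a stress-induced member that binds AKT, ATF4 and CHOP. All of this is regulation of proteins, whereas the present data are transcript levels.

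The libraries held 34206726 to 36311029 fragments. All 13 hepatocyte markers were above 1 FPKM (fragments scaled to gene length and library depth) in each group, with ALB, which encodes albumin, highest at 5213, 5073 and 6645 FPKM in shCtrl, shTRIB3-1 and shTRIB3-2. The 7 fibroblast and stellate cell markers in the table summed to at most 0.214 FPKM in any library. Of the 8 blood and endothelial markers, the leukocyte markers PTPRC and CD3E were at most 0.00448 and 0.0419 FPKM in any library and at 0 in shCtrl. CD68, a lysosomal protein often used as a macrophage marker, was present at 31.8, 37.6 and 33.5 FPKM in the 3 groups, and CD14, a monocyte marker, at 0.938 to 1.27 FPKM in shCtrl, 0.245 to 0.284 FPKM with shTRIB3-1 and 0.249 to 0.419 FPKM with shTRIB3-2. The part of these markers in the results was not tested. The sources do not say whether libraries of a group came from separate cultures, so p-values measure the spread between these libraries, which may be technical.

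The hairpins decide which transcripts can be silenced directly, and their target sequences are therefore given, with capitals marking the 7 bases paired by the guide seed:
shTRIB3-1: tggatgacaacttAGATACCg
shTRIB3-2: gccgtgctcttccGCCAGATg
In GRCh38 with GENCODE release 44, the shTRIB3-1 target lay at chr20:388072-388092 on the plus strand, in exon 2 of 4 of TRIB3 transcript ENST00000217233.9, and began at base 62 of the 1074-base coding sequence. The shTRIB3-2 target lay at chr20:391473-391493, in exon 3, and began at coding base 478. Among 252835 annotated transcripts, each full 21-base target was found only in TRIB3, in 4 transcripts for shTRIB3-1 and in 3 for shTRIB3-2. The best alignment to any other gene of the group had 6 mismatches of 21 for either hairpin, in TRIB2 for shTRIB3-1 and in TRIB1 and CEBPD for shTRIB3-2. Each guide was assumed to be the exact reverse complement of its target, and where the guide begins in the cells was not measured. On that assumption, the 7-base seed match of shTRIB3-1 occurred in the 3′ UTR of CEBPG alone among the 9 genes (1 site; 6.21% of 20020 coding genes have it), and that of shTRIB3-2 in the 3′ UTR of DET1 alone (1 site; 8.25% of genes).

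To define how the Tribbles and C/EBP transcripts differed after TRIB3 knockdown, each hairpin was compared with shCtrl by limma on log2(FPKM + 0.1), with Benjamini-Hochberg adjustment over 11265 genes that reached 1 FPKM in at least 3 libraries. A gene passed at an adjusted p under 0.05. Of the 9 genes, 8 could be tested in this way; TRIB2 lay below the filter. With shTRIB3-1, 2 genes were higher (TRIB1 and DET1), beside 32.9% of all tested genes, and 4 were lower (TRIB3, CEBPA, CEBPB and CEBPD), beside 41.5%. With shTRIB3-2, 4 were higher (TRIB1, COP1, DET1 and CEBPG), beside 35.4% of all tested genes, and 4 were lower (TRIB3, CEBPA, CEBPB and CEBPD), beside 40.5%. Changes beyond 2-fold were found for TRIB1 and CEBPD with shTRIB3-1, where 11.5% of all tested genes were that large, and for TRIB1, TRIB3 and CEBPD with shTRIB3-2, where the share was 12.3%. DET1 entered the test only through the knockdown groups, where it is high, so its place in these counts follows in part from the filter. The shares of the 8 genes that passed are to be read against these backgrounds, since most tested genes passed in both comparisons.

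TRIB3, the target of both hairpins, had 67.9, 65.8 and 66.6 FPKM in the shCtrl libraries, 34.1, 32.7 and 34.0 FPKM with shTRIB3-1, and 20.6, 20.7 and 20.4 FPKM with shTRIB3-2. The 3 groups did not overlap, and every library labelled as a knockdown was below every control. TRIB3 fell to 50.3% of control with shTRIB3-1 (log2 fold change -0.99 ± 0.03 SE, limma adjusted p 5.30e-11) and to 30.8% with shTRIB3-2 (-1.70 ± 0.03, adjusted p 5.39e-13). In a bulk library, fewer expressing cells and less RNA per cell cannot be told apart.

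TRIB1, the family member best known for presenting C/EBPα to COP1, had 18.2, 16.6 and 16.8 FPKM in shCtrl, 38.8, 38.7 and 37.7 FPKM with shTRIB3-1, and 37.7, 37.9 and 39.1 FPKM with shTRIB3-2. Every knockdown library lay above every control library, and the hairpin groups overlapped each other. The rise was 2.24-fold with shTRIB3-1 (log2 1.16 ± 0.04 SE, limma adjusted p 1.16e-10) and 2.22-fold with shTRIB3-2 (1.15 ± 0.04, adjusted p 8.89e-11). Among all tested genes, 4.29% and 4.78% had a log2 fold change at least as high. Between the hairpins, which left different amounts of TRIB3, TRIB1 differed by -0.01 on the log2 scale, with a 95% confidence interval of -0.09 to 0.08.

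TRIB2, which shares with TRIB1 the ability to drive C/EBPα breakdown in leukemia, was scarcely transcribed in these cells, at 0.392, 0.260 and 0.218 FPKM in shCtrl, 0.343, 0.262 and 0.324 FPKM with shTRIB3-1, and 0.114, 0.146 and 0.177 FPKM with shTRIB3-2. These values rest on 34 to 61, 39 to 51 and 17 to 27 fragments per library. The shTRIB3-2 libraries were the lowest, whereas the other groups overlapped. In a fit over all 24204 genes, TRIB2 changed by 0.09 ± 0.20 SE on the log2 scale with shTRIB3-1 (limma adjusted p 0.773) and by -0.65 ± 0.20 with shTRIB3-2 (adjusted p 0.0292). The latter call was lost when shCtrl replicate 1 was left out (-0.47, adjusted p 0.0701), and likewise without shCtrl replicate 2 (adjusted p 0.0525), shTRIB3-2 replicate 1 (0.0922) or shTRIB3-2 replicate 2 (0.0660), and the value was -0.17 with a pseudocount of 1.

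**Figure D1:**
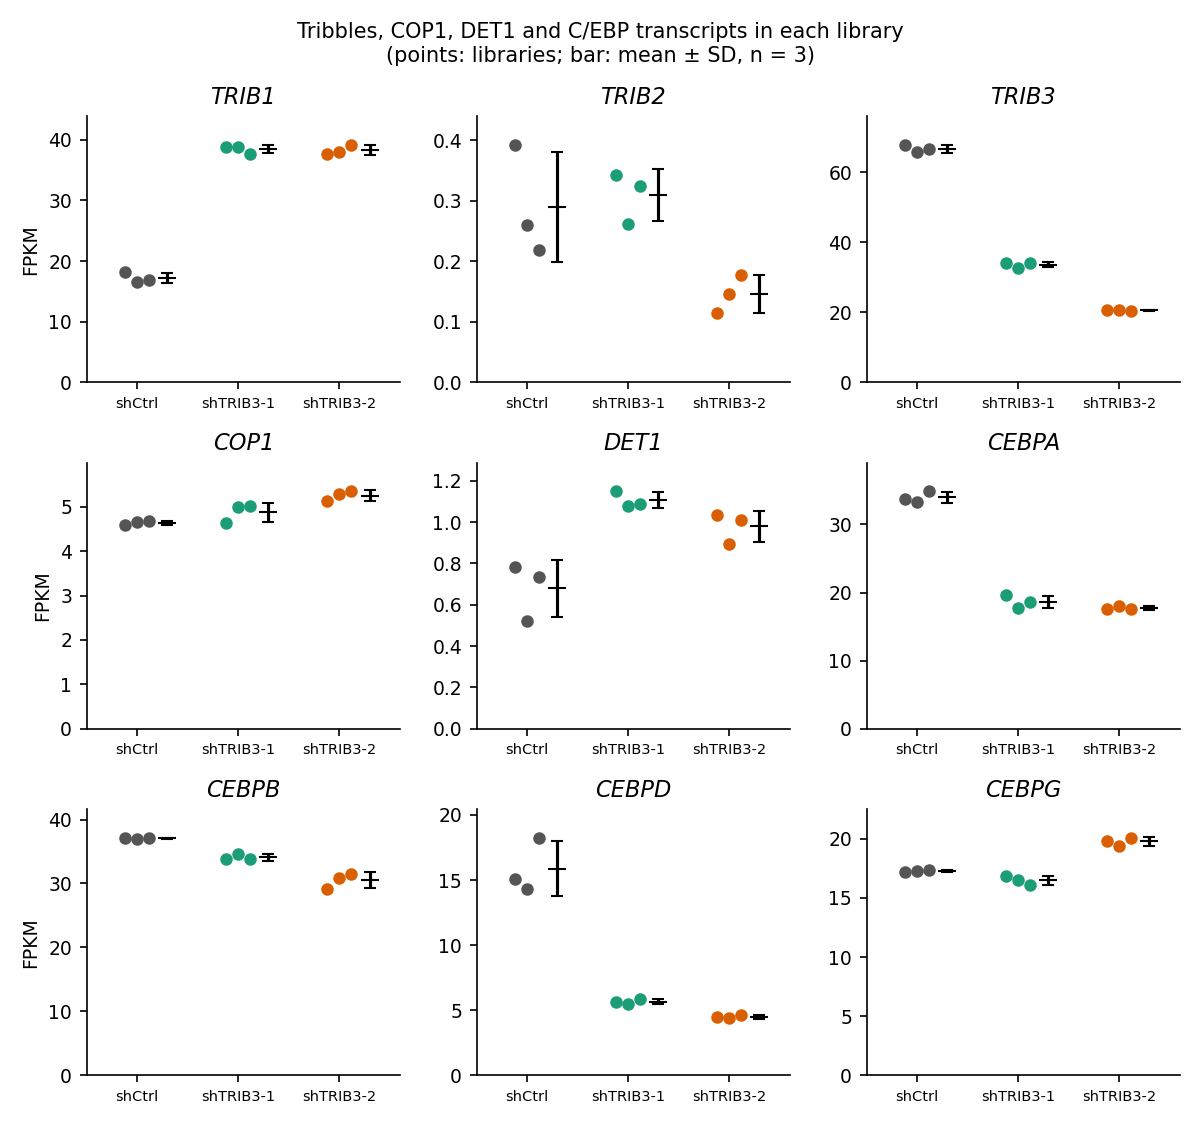
FPKM of each of the 9 genes (vertical axes, starting at 0 and scaled per gene) in the 3 groups; points are libraries and black bars are the mean ± SD (n = 3). TRIB3 fell from 66.8 to 33.6 and 20.5 FPKM on average while TRIB1 rose from 17.2 to 38.4 and 38.2 FPKM, and CEBPA and CEBPD were lower in all 6 knockdown libraries than in any control library.

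With the 3 Tribbles transcripts added up, TRIB3 made 79.3% ± 0.657 (SD, n = 3) of the family sum in shCtrl, TRIB1 made 20.4% ± 0.561 and TRIB2 made 0.343% ± 0.0993. With shTRIB3-1 the share of TRIB1 was 53.1% ± 0.847 and that of TRIB3 46.5% ± 0.802, and with shTRIB3-2 they were 64.9% ± 0.612 and 34.9% ± 0.656. By deposited FPKM, TRIB1 had therefore replaced TRIB3 as the most abundant Tribbles transcript in every knockdown library. The ratio of TRIB1 to TRIB3 went from 0.257 ± 0.00926 in shCtrl to 1.14 ± 0.0381 and 1.86 ± 0.0531. This ratio also depends on the length taken for each gene, and with shTRIB3-1 it was close to 1. The family sum was 84.2 ± 2.02 FPKM in shCtrl, 72.3 ± 0.796 FPKM with shTRIB3-1 and 58.9 ± 0.674 FPKM with shTRIB3-2. On average TRIB3 fell by 33.2 FPKM with shTRIB3-1 and fell by 46.2 FPKM with shTRIB3-2, whereas TRIB1 gained 21.2 and 21.1 FPKM.

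**Figure D2:**
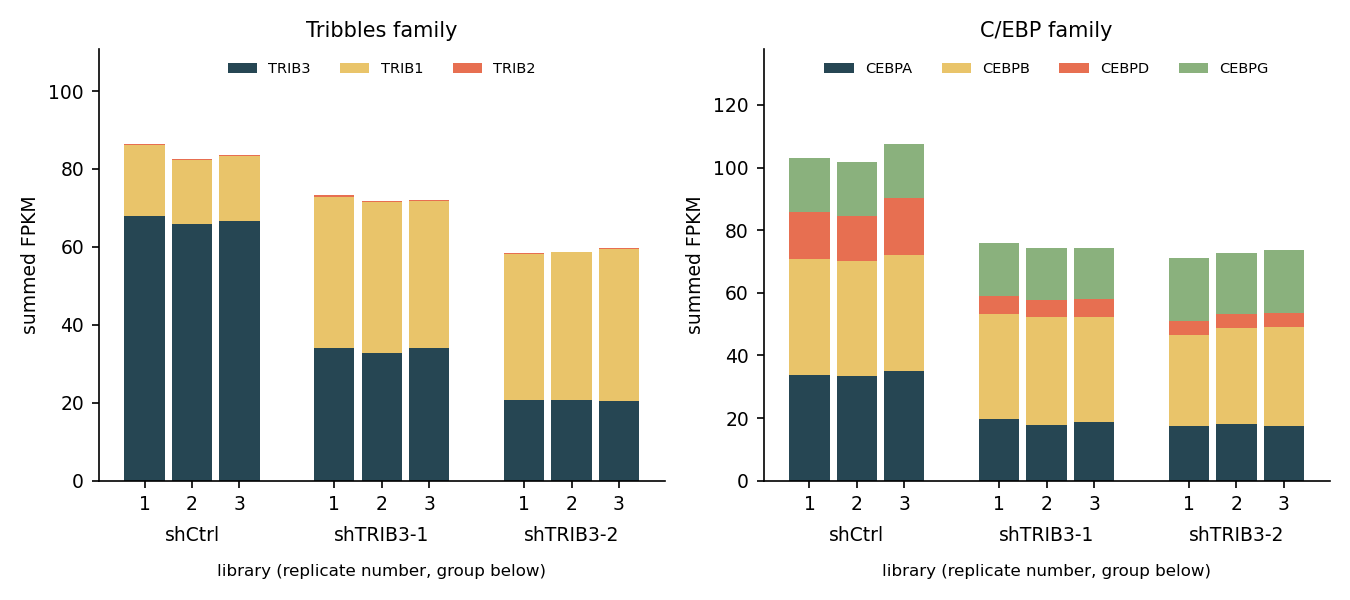
Summed FPKM (vertical axes) of the 3 Tribbles genes and of the 4 C/EBP genes in each library, stacked by gene; libraries are ordered by group and replicate number. The Tribbles sum is 84.2, 72.3 and 58.9 FPKM on average in shCtrl, shTRIB3-1 and shTRIB3-2, and the C/EBP sum is 104 FPKM in shCtrl and 74.8 and 72.5 FPKM in the knockdown groups.

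COP1, the E3 ligase that Tribbles tails recruit, had 4.60, 4.65 and 4.67 FPKM in shCtrl, 4.64, 4.98 and 5.01 FPKM with shTRIB3-1, and 5.12, 5.28 and 5.35 FPKM with shTRIB3-2. The shTRIB3-1 libraries overlapped the controls, whereas all shTRIB3-2 libraries lay above them. The difference was 0.07 ± 0.05 SE on the log2 scale with shTRIB3-1 (limma adjusted p 0.256), a call that depended on scaling since it passed at 0.15 (adjusted p 0.0206) once each library was centred on its median. With shTRIB3-2, COP1 rose by 0.17 ± 0.05 (adjusted p 0.0101), which is 1.13-fold. The deposited value divides by a length of 9291 bases, while the GENCODE exons of COP1 span 4177 bases, so its level relative to the other genes depends on the annotation used.

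DET1, which links COP1 to the DDB1-CUL4 ligase, had 0.781, 0.520 and 0.736 FPKM in shCtrl, 1.15, 1.08 and 1.09 FPKM with shTRIB3-1, and 1.04, 0.893 and 1.01 FPKM with shTRIB3-2, from 48 to 100 fragments per library. All knockdown libraries were above all controls. DET1 was 1.63-fold higher with shTRIB3-1 (log2 0.65 ± 0.15 SE, limma adjusted p 0.00155) and 1.44-fold higher with shTRIB3-2 (0.48 ± 0.15, adjusted p 0.00926), and the log2 values were 0.33 and 0.24 with a pseudocount of 1. It entered the test through the knockdown groups alone, since no control library reached 1 FPKM, and 35.9% of its exon bases are shared on the same strand with another annotated gene (ENSG00000173867). The gene carries the seed match of shTRIB3-2 in its 3′ UTR, and the part of that match in its level was not tested.

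Around COP1 and DET1, 17 of 18 listed genes of the ligase and of the COP9 signalosome, the complex that removes NEDD8 from cullins, were tested. With shTRIB3-1, 4 were higher, 5 were lower and 8 did not pass; with shTRIB3-2, 6 were higher, 4 were lower and 7 did not pass, beside 32.9% and 35.4% higher and 41.5% and 40.5% lower over all tested genes. Their median log2 fold changes were 0.01 and -0.03, beside -0.06 and -0.03 for all tested genes, and none changed beyond 2-fold. GPS1, a COP9 subunit, fell from 41.0 ± 0.955 to 31.6 ± 0.671 and 31.2 ± 0.517 FPKM (log2 -0.37 and -0.39, limma adjusted p 4.29e-07 and 2.37e-07). DDB1, the adaptor of CUL4 ligases, fell as well (log2 -0.23 and -0.34, adjusted p 1.03e-05 and 2.37e-07). The RING protein RBX1 rose by 0.18 and 0.35 (adjusted p 0.0221 and 3.98e-04), the former being 0.12 (adjusted p 0.0949) without shCtrl replicate 1, and the ubiquitin-conjugating enzyme UBE2E3 by 0.22 and 0.23 (adjusted p 8.38e-04 and 6.01e-04). Opposite-strand genes overlap 13.6% of the GPS1 exon bases in GENCODE, 9.78% for UBE2E3 and 3.18% for DDB1.

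CEBPA, the C/EBP factor that keeps hepatocytes differentiated and is degraded through TRIB1 and COP1, had 33.7, 33.3 and 34.9 FPKM in shCtrl, 19.6, 17.7 and 18.6 FPKM with shTRIB3-1, and 17.6, 18.1 and 17.5 FPKM with shTRIB3-2. Control and knockdown libraries were far apart, and the hairpin groups overlapped. CEBPA fell to 54.8% of control with shTRIB3-1 (log2 -0.87 ± 0.04 SE, limma adjusted p 1.84e-09) and to 52.1% with shTRIB3-2 (-0.94 ± 0.04, adjusted p 7.81e-10). In GENCODE, 43.9% of its exon bases are overlapped by genes on the opposite strand, and the sources give no strand setting for the counting. The neighbouring divergent transcript CEBPA-DT is not among those opposite-strand genes, whose levels are not given here. It was far less abundant than CEBPA, at 2.61 ± 0.232 FPKM in shCtrl, 1.85 ± 0.211 FPKM with shTRIB3-1 and 2.12 ± 0.0940 FPKM with shTRIB3-2. CEBPA-DT fell too (log2 -0.47 and -0.29 in the fit over all genes, limma adjusted p 0.00395 and 0.0462).

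CEBPD, an acute-phase member that inflammatory signals induce, had 15.0, 14.3 and 18.3 FPKM in shCtrl, 5.60, 5.45 and 5.83 FPKM with shTRIB3-1, and 4.44, 4.36 and 4.62 FPKM with shTRIB3-2. The 3 groups did not overlap, and shCtrl replicate 3 was the highest library. CEBPD showed the steepest fall of the 4 C/EBP genes, to 35.4% of control with shTRIB3-1 (log2 -1.47 ± 0.08 SE, limma adjusted p 4.94e-09) and to 28.2% with shTRIB3-2 (-1.80 ± 0.08, adjusted p 6.92e-10). Among all tested genes, 2.36% and 2.22% had a log2 fold change at least as low.

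CEBPB, which exists as activating and inhibitory protein isoforms and takes part in stress and acute-phase responses, had 37.0, 36.9 and 37.2 FPKM in shCtrl, 33.8, 34.6 and 33.7 FPKM with shTRIB3-1, and 29.1, 30.8 and 31.5 FPKM with shTRIB3-2. The groups were separate but close. It fell by 0.12 ± 0.03 SE on the log2 scale with shTRIB3-1 (limma adjusted p 0.00701) and by 0.28 ± 0.03 with shTRIB3-2 (adjusted p 9.88e-06), and after median centring the former was -0.04 (adjusted p 0.368) and did not pass. The antisense gene CEBPB-AS1, which overlaps 12.6% of the CEBPB exon bases, was at 1.15 ± 0.0759, 1.21 ± 0.282 and 0.980 ± 0.114 FPKM.

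CEBPG, which lacks an activation domain and works as a dimer partner of ATF4 and other C/EBP proteins, had 17.2, 17.3 and 17.3 FPKM in shCtrl, 16.9, 16.5 and 16.1 FPKM with shTRIB3-1, and 19.9, 19.4 and 20.1 FPKM with shTRIB3-2. The shTRIB3-2 libraries were the highest and the shTRIB3-1 libraries the lowest, by a small margin. The difference from control was -0.07 ± 0.03 SE on the log2 scale with shTRIB3-1 (limma adjusted p 0.0875), which turned to 0.01 after median centring, and CEBPG rose by 0.19 ± 0.03 with shTRIB3-2 (adjusted p 2.29e-04). The gene carries the seed match of shTRIB3-1 in its 3′ UTR.

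Added up, the 4 C/EBP transcripts made 104 ± 3.06 FPKM in shCtrl, 74.8 ± 0.912 FPKM with shTRIB3-1 and 72.5 ± 1.43 FPKM with shTRIB3-2. CEBPB took 35.6% ± 0.905 of the sum in shCtrl against 45.6% ± 1.02 and 42.1% ± 0.908 in the knockdown groups, CEBPA took 32.6% ± 0.192 against 24.9% ± 1.01 and 24.5% ± 0.601, and CEBPD took 15.2% ± 1.54 against 7.53% ± 0.283 and 6.17% ± 0.144. CEBPA fell by 15.4 FPKM with shTRIB3-1 and fell by 16.3 FPKM with shTRIB3-2, and CEBPD fell by 10.3 FPKM and fell by 11.4 FPKM. The ratio of CEBPA to CEBPB dropped from 0.917 ± 0.0184 in shCtrl to 0.546 ± 0.0344 with shTRIB3-1 and 0.582 ± 0.0237 with shTRIB3-2.

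**Figure D3:**
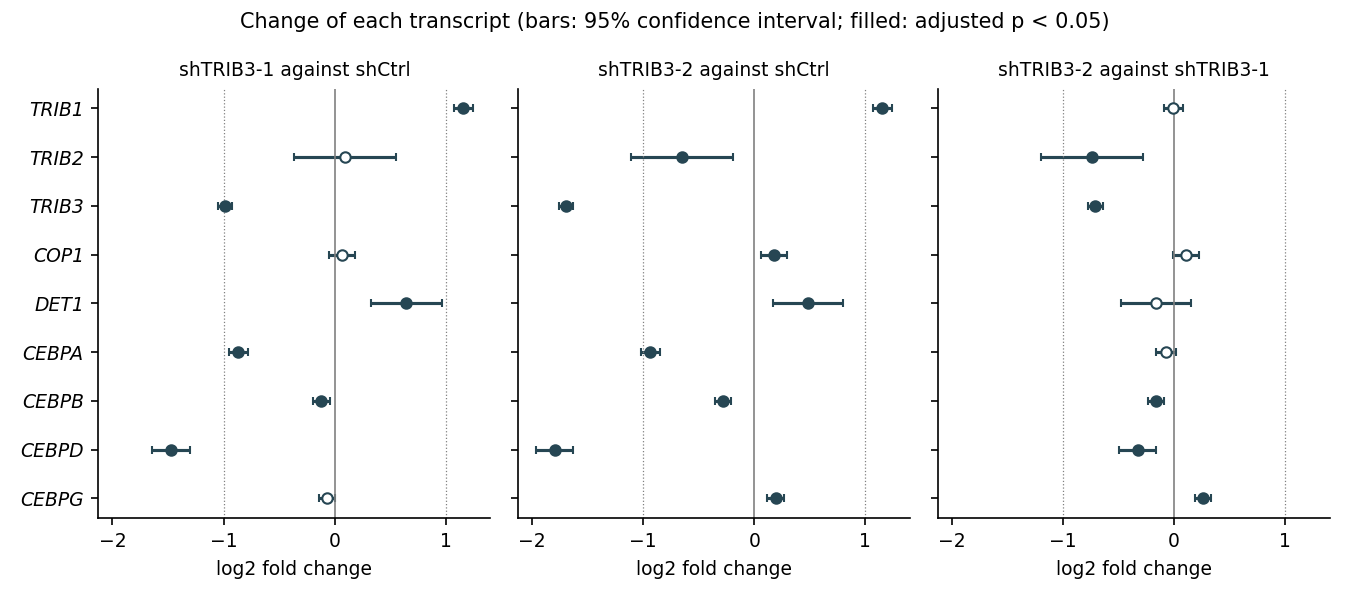
Log2 fold changes of the 9 genes (horizontal axes) in the 3 comparisons, with 95% confidence intervals; filled points passed at an adjusted p under 0.05, dotted lines mark 2-fold, and TRIB2 comes from the fit over all genes. TRIB1 lies near 1.16 and CEBPA near -0.9 with either hairpin. When the hairpins are compared with each other, TRIB3, CEBPB, CEBPD and CEBPG lie away from 0, as does TRIB2 with a wide interval.

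The hairpins left different amounts of TRIB3, and comparing them directly shows which of the other genes differed along with it. TRIB3 was lower with shTRIB3-2 than with shTRIB3-1 (log2 -0.71 ± 0.03 SE, limma adjusted p 9.54e-09). Of the 8 genes tested, 1 was higher with shTRIB3-2 (CEBPG; 25.1% of all tested genes were), 3 were lower (TRIB3, CEBPB and CEBPD; 20.7% of all tested genes), and 4 did not pass. No gene of the 8 differed beyond 2-fold, as 2.08% of all tested genes did. CEBPG differed by 0.26 ± 0.03 (adjusted p 7.02e-05), CEBPB by -0.16 ± 0.03 (adjusted p 0.00240) and CEBPD by -0.33 ± 0.08 (adjusted p 0.00459). For TRIB1 and CEBPA the difference did not pass, and the 95% confidence intervals were narrow: -0.09 to 0.08 for TRIB1 and -0.16 to 0.02 for CEBPA. COP1 differed by 0.11 (interval -0.01 to 0.22, adjusted p 0.128) and DET1 by -0.16 (-0.48 to 0.16, adjusted p 0.394). TRIB2 was lower by 0.74 in the fit over all genes (adjusted p 0.0306), and this call was lost without shTRIB3-1 replicate 1 (adjusted p 0.0895) or replicate 3 (0.0842), or without shTRIB3-2 replicate 1 (0.0984) or replicate 2 (0.0713). Since the hairpins are different sequences carried by different viruses, the amount of TRIB3 left and the hairpin itself cannot be told apart.

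By level within shCtrl, the order was TRIB3, CEBPB, CEBPA, then CEBPG, TRIB1 and CEBPD, whose library values overlapped from one to the next, then COP1, DET1 and TRIB2. With shTRIB3-1 TRIB1 came to the top, followed by CEBPB and TRIB3, which overlapped, and then by CEBPA, CEBPG, CEBPD, COP1, DET1 and TRIB2. With shTRIB3-2 the order was TRIB1, CEBPB, TRIB3, CEBPG, CEBPA, COP1, CEBPD, DET1 and TRIB2, with no overlap between neighbours. These orders hold for the deposited lengths: COP1 has 9291 bases there and 4177 in GENCODE exons, and DET1 has 2542 and 6859. The places of COP1 next to CEBPD and of DET1 next to TRIB2 therefore depend on the annotation. So do those of genes with close levels, such as TRIB3 and CEBPG with shTRIB3-2.

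Among the known substrates of COP1, 13 of 15 listed genes were tested. With shTRIB3-1, 5 were higher, 5 were lower and 3 did not pass; with shTRIB3-2, 6 were higher, 6 were lower and 1 did not pass. Over all tested genes the shares were 32.9% higher and 41.5% lower in the first comparison and 35.4% and 40.5% in the second. The medians were -0.0027 and -0.0096 on the log2 scale, beside -0.06 and -0.03 for all tested genes. JUN, which encodes the AP-1 subunit c-Jun, rose from 23.2 ± 0.421 FPKM in shCtrl to 44.6 ± 1.06 and 44.9 ± 1.29 FPKM (log2 0.94 and 0.95, limma adjusted p 1.75e-10 and 1.19e-10). ACACB, the mitochondrial acetyl-CoA carboxylase, fell by 1.09 and 0.85 (adjusted p 7.98e-06 and 7.02e-05) but entered the test through the 3 control libraries alone, since no knockdown library reached 1 FPKM. CRTC2, a CREB coactivator of gluconeogenic genes, rose by 0.55 and 0.58 (adjusted p 5.51e-05 and 3.39e-05).

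Of the proteins reported to bind a Tribbles member, 20 of 21 were tested at the transcript level. With shTRIB3-1, 10 were higher, 6 were lower and 4 did not pass; with shTRIB3-2, 10 were higher, 7 were lower and 3 did not pass, beside 32.9% higher and 41.5% lower, and 35.4% and 40.5%, over all tested genes. The medians were 0.14 and 0.21, beside -0.06 and -0.03. CDC25C, the phosphatase that triggers mitotic entry, fell most, from 5.12 ± 0.543 FPKM in shCtrl to 1.17 ± 0.130 and 0.557 ± 0.177 FPKM (log2 -2.04 and -3.03, limma adjusted p 5.43e-07 and 1.28e-08). SQSTM1, the autophagy receptor p62, rose from 250 ± 12.1 to 511 ± 23.3 and 461 ± 12.2 FPKM (log2 1.03 and 0.88, adjusted p 6.86e-10 and 2.13e-09). The ubiquitin ligase SMURF1 rose by 0.74 and 0.66 (adjusted p 8.65e-09 and 2.08e-08), whereas the histone chaperone subunit SSRP1 fell by 0.68 and 0.91 (adjusted p 2.57e-08 and 1.57e-09). Genes on the opposite strand overlap 22.4% of the SQSTM1 exon bases in GENCODE, 11.7% for SMURF1, 8.80% for CDC25C and 2.21% for SSRP1.

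The C/EBP proteins also pair with other basic leucine zipper factors, of which 14 of 17 listed genes were tested. In each comparison with shCtrl, 6 were higher, 5 were lower and 3 did not pass. The medians were 0.03 and -0.02, beside -0.06 and -0.03 for all tested genes, of which 32.9% and 35.4% were higher and 41.5% and 40.5% were lower. Those that rose most belong to or pair with the AP-1 family: FOSL1 went from 10.5 ± 2.12 FPKM in shCtrl to 29.0 ± 2.30 and 33.4 ± 1.30 FPKM (log2 1.48 and 1.68, limma adjusted p 9.85e-08 and 2.56e-08), and BATF from 6.01 ± 0.141 to 18.9 ± 1.39 and 16.1 ± 1.30 FPKM (log2 1.63 and 1.40). The stress factor ATF3 rose by 1.15 and 1.22 (adjusted p 1.79e-09 and 8.96e-10) and the immediate early gene FOS by 1.45 and 0.92 (adjusted p 3.10e-07 and 1.73e-05).

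ATF4 and DDIT3, which encode the stress factors that TRIB3 binds and that induce TRIB3, moved apart, and both are counted in the partner list and in the leucine zipper list. ATF4 fell from 50.3 ± 1.55 FPKM in shCtrl to 37.6 ± 0.586 and 30.8 ± 1.30 FPKM (log2 -0.42 and -0.71, limma adjusted p 6.58e-07 and 4.65e-09). DDIT3, which encodes CHOP, was at 18.4 ± 0.528, 21.7 ± 1.42 and 31.7 ± 1.75 FPKM (log2 0.24 and 0.78, adjusted p 0.00137 and 4.04e-08). Both changes were larger with shTRIB3-2, by -0.29 for ATF4 and by 0.54 for DDIT3 (limma adjusted p 7.01e-05 and 6.65e-06). In GENCODE, 31.6% of the DDIT3 exon bases are overlapped by genes on the opposite strand and 8.03% by a gene on the same strand.

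Classical hepatocyte targets of C/EBP factors were mostly lower. Of 24 listed genes, 23 were found and 18 were tested; with shTRIB3-1, 3 were higher, 14 were lower and 1 did not pass, and with shTRIB3-2, 5 were higher, 11 were lower and 2 did not pass. Over all tested genes, 32.9% and 35.4% were higher and 41.5% and 40.5% were lower. The medians were -0.55 and -0.46 on the log2 scale, beside -0.06 and -0.03 for all tested genes. SERPINA3, which encodes the acute-phase protein antichymotrypsin, fell most (log2 -3.95 and -3.94, limma adjusted p 8.34e-13 and 5.39e-13). HP, which encodes haptoglobin, fell from 82.6 ± 7.12 FPKM in shCtrl to 6.01 ± 0.389 and 7.40 ± 0.878 FPKM (log2 -3.76 and -3.47, adjusted p 6.02e-12 and 6.76e-12). The fibrinogen chain FGG fell by 1.67 and 1.21 (adjusted p 5.62e-11 and 6.35e-10). PCK1, the gluconeogenic enzyme, went the other way, from 1.46 ± 0.0456 FPKM in shCtrl to 17.8 ± 0.408 and 8.65 ± 0.411 FPKM (log2 3.52 and 2.49, adjusted p 2.38e-13 and 1.76e-12). It was not alone, since TTR rose by 1.08 and 1.71 and APOA1 by 0.63 and 0.70. These were the 3 genes higher with shTRIB3-1, and ALB and TF were higher as well with shTRIB3-2. When the hairpins were compared, 11 of the 18 were higher with shTRIB3-2, 4 were lower and 3 did not pass, beside 25.1% higher and 20.7% lower over all tested genes (median 0.27, beside 0.03). SERPINA3 shares 31.7% of its exon bases on the same strand with another annotated gene, and HP has a close neighbouring paralog, HPR, so reads may be split between copies.

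**Figure D4:**
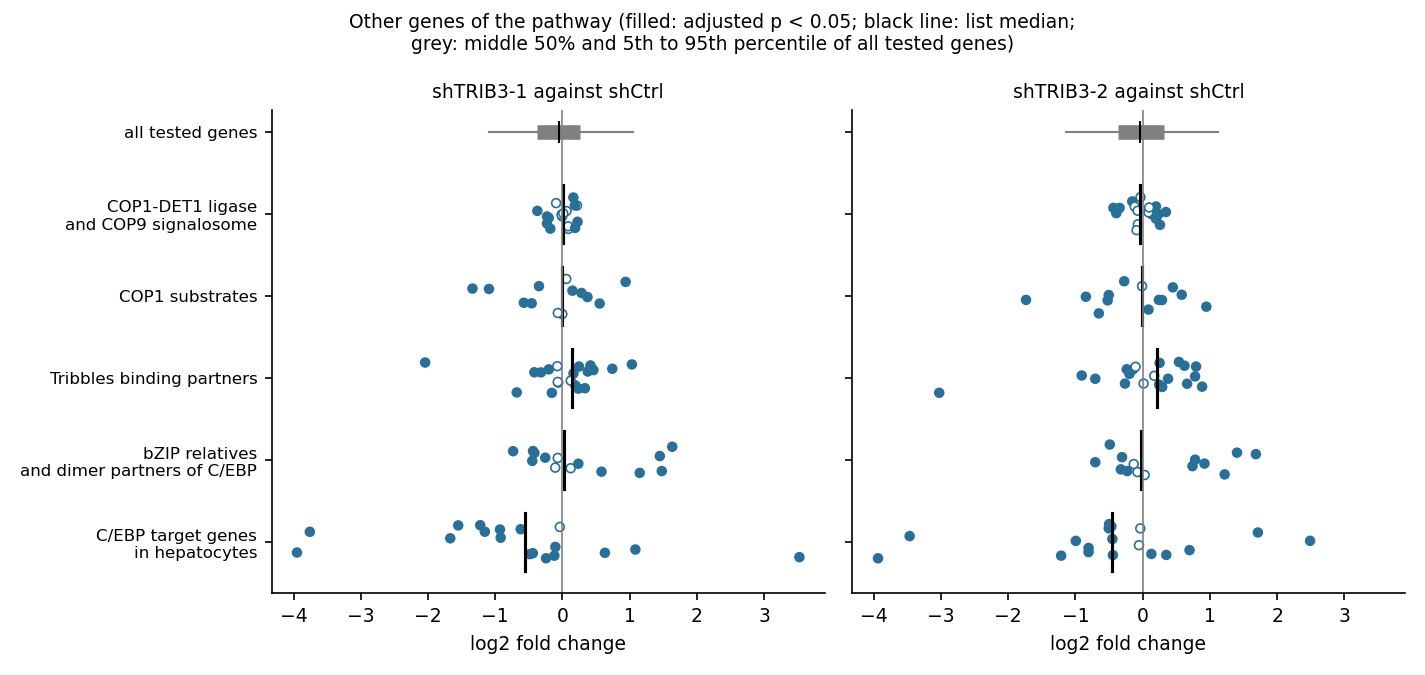
Log2 fold changes (horizontal axes) of the tested genes of 5 lists with shTRIB3-1 and shTRIB3-2 against shCtrl; filled points passed at an adjusted p under 0.05, black lines are list medians, and the grey bar shows the middle 50% and the 5th to 95th percentile of all tested genes. The medians of the C/EBP target list are -0.55 and -0.46, while those of the ligase and COP9 list are 0.01 and -0.03.

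Genes whose levels ran close to those of TRIB3 were found by the root mean square difference of mean-centred log2(FPKM + 0.1) over the 9 libraries. Among the closest were MCM8 (0.0634), a helicase of DNA repair, CENPO (0.0680), a centromere protein, BRCA2 (0.0684), a homologous recombination factor, and TCOF1 (0.0817), a nucleolar protein of ribosome biogenesis. MCM8, for one, had 7.23 ± 0.0388 FPKM in shCtrl, 3.31 ± 0.0248 FPKM with shTRIB3-1 and 2.17 ± 0.0653 FPKM with shTRIB3-2. In GENCODE, 33.3% of the MCM8 exon bases are shared on the same strand with another gene. For CENPO, 31.6% are overlapped on the opposite strand. Among the 7 other members that passed the filter, which leaves out TRIB2, CEBPD was nearest to TRIB3 at 0.227, followed by CEBPA at 0.334, and TRIB1 was farthest at 1.21. The closest pair of these 8 genes was COP1 and CEBPG, at 0.0839. These values describe 9 libraries in 3 groups and mainly reflect the group means.

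The study concerns G-quadruplexes, 4-stranded structures that guanine-rich DNA can form, and the promoters were therefore searched for their sequence pattern. RefSeq promoters of GRCh38 (250 bases before to 50 after each start) were given for 7 of the 9 genes, all but TRIB1 and CEBPD. A pattern of 4 runs of at least 3 G with spacers of 1 to 7 bases, on either strand, was found in 6 of the 7 (TRIB2, TRIB3, DET1, CEBPA, CEBPB and CEBPG, but not COP1), and in 27.9% of all 27305 genes with a promoter. The GC content of the promoters was not compared. The matches upstream of a start and outside annotated exons of the gene are given, with the strand read 5′ to 3′ and capitals marking the whole match:
TRIB3, chr20:381210-381234, plus strand: GGGGGGCGGGAGGGGGCGGCCGGGG
TRIB2, chr2:12716826-12716848, plus strand: GGGGGGCCCGGGCGGGGGCGGGG
DET1, chr15:88546431-88546451, plus strand, opposite to the gene: GGGAGGGCGGGGGCCGCGGGG
CEBPG, chr19:33373994-33374020, minus strand, opposite to the gene: GGGCCAGCGGGCCGTCTGGGGCCGGGG
The TRIB3 match lies 85 to 61 bases before the start. The genes with a match include CEBPA and CEBPB, which fell with both hairpins, DET1, which rose with both, and TRIB3, the hairpin target. The part of the pattern in these changes was not tested.

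The letters TGATGNAA, as bound by dimers of ATF4 and C/EBP, were found on either strand in 4.46% of all 27305 genes with a promoter. Among the 7 genes they were in CEBPG alone, as TGATGCAA at chr19:33374071-33374078, 42 bases before a start. The C/EBP letters TTNNGCAA, present in 12.7% of all genes with a promoter, were in none of the 7. A match is a description of the sequence, and binding was not tested.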

How the data were processed

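RNA-seq was deposited as FPKM per gene symbol, computed by the authors for 9 HepG2 libraries. Per the study's methods, alignment used STAR and the GRCh38 genome; the submitters' processing notes name HTSeq and R 3.2.0. The annotation release and strand setting are not given in the sources used here. Fragment numbers were recovered from the FPKM steps (100% of 172769 values above 0 whole within 0.02), which also gave each gene's length. FPKM does not correct for composition.

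Genes with at least 1 FPKM in 3 libraries (11265 of 24204) were tested on log2(FPKM + 0.1) with limma 3.58.1 in R 4.3.3, with 3 group means, a mean-variance trend and Benjamini-Hochberg adjustment; a fold change is on that scale. Scripts were tested on simulated data. Alternatives covered pseudocount, filter, scaling, voom on fragments, the groups fitted, a replicate block and each library left out. Deviations from the group mean correlated at -0.0742 to 0.0933 between same-numbered libraries of different groups (median 0.0279). Between differently numbered ones they correlated at -0.0756 to 0.0479 (median -0.0152). The ranges overlapped and all values were small, so the numbers were not taken as pairs.

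The members and gene lists were chosen with earlier results of these data known. The rule named all 9 members, ATF4, DDIT3 and JUN, up to 4 genes per list with the largest mean change of 1 sign that passed in both comparisons, and the 5 genes nearest TRIB3; some genes the rule named are not reported here. TTR, APOA1, ALB and TF were named in addition. CRP and THY1 were not analysed here. Hairpin sequences came from the study's supplement, promoters from RefSeq, and gene models from GENCODE release 44.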

Additional observations from a re-analysis of the deposited data

Results flagged for a closer look

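Among the 8 tested genes, 4 differed between the hairpins by a limma test of shTRIB3-2 against shTRIB3-1. TRIB3 was lower with shTRIB3-2 by a log2 difference of -0.71, CEBPB by -0.16 and CEBPD by -0.33, in the direction in which each was below control with both hairpins, and CEBPG was higher by 0.26. CEBPG was at 17.3 ± 0.0712 FPKM in shCtrl (SD, n = 3), 16.5 ± 0.382 FPKM with shTRIB3-1 and 19.8 ± 0.370 FPKM with shTRIB3-2, and it was the gene with a shTRIB3-1 seed match in its 3′ UTR. The part of that match in the difference was not tested.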

How the results depend on the processing

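Of 504 recomputed fold changes of the 9 genes, 483 kept their direction and their side of the threshold. The changes of TRIB3, TRIB1, CEBPA and CEBPD against shCtrl passed under every alternative run, at -1.04 to -0.91 and -1.72 to -1.64 for TRIB3, 1.11 to 1.24 and 1.11 to 1.20 for TRIB1, -0.92 to -0.79 and -0.96 to -0.88 for CEBPA, and -1.54 to -1.34 and -1.87 to -1.62 for CEBPD. The small difference of TRIB1 between the hairpins turned to 0.024 with TPM rescaling, and with 1 library left out at a time it ranged from -0.024 to 0.0038, above 0 without shTRIB3-1 replicate 1 or shTRIB3-2 replicate 1. TRIB2 with shTRIB3-1 turned to -0.033 with quantile normalization and ranged from -0.044 (without shCtrl replicate 3) to 0.27 (without shCtrl replicate 1) with libraries left out, and its call with shTRIB3-2 was lost when only the 2 groups compared were fitted (limma adjusted p 0.0637). CEBPG with shTRIB3-1 turned to 0.012 with median centring and passed with TPM rescaling (-0.12, limma adjusted p 0.0171). COP1 with shTRIB3-1 also passed with quantile normalization (0.13, limma adjusted p 0.0389). Median centring left 3 genes of the ligase and COP9 list passing between the hairpins, against 6. The cause of these changes was not tested.

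With the replicate number as a block, 6, 8 and 4 of the genes passed in the 3 comparisons, as without it, and TRIB3 stayed at -0.99, -1.70 and -0.71; TRIB2 lost its calls with shTRIB3-2 against shCtrl and against shTRIB3-1 (limma adjusted p 0.0552 and 0.0597). RBX1 with shTRIB3-1 lost its call under TPM rescaling (limma adjusted p 0.0723), without a filter (0.0712), and without shCtrl replicate 1 (0.0949) or shTRIB3-1 replicate 2 (0.0869). Over all genes, 1294, 1389 and 234 changed beyond 2-fold with the settings of the report, 780, 888 and 84 with a pseudocount of 1, 745, 801 and 126 with a filter of 5 FPKM, and 1999, 1941 and 417 with no filter. TRIB2 and DET1 rest on 17 to 100 fragments per library, fewer than the other 7 genes.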
